A study of Rattus norvegicus and Mus musculus with 34 samples.

Results

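The genes described here encode the ligands and receptors of calcitonin gene-related peptide (CGRP) and adrenomedullin. They were chosen by name from knowledge of the pathway, with earlier results of these data known. The ligand genes are Calca, Calcb, Adm and Adm2, and the receptor genes are Calcrl, Ramp1, Ramp2 and Ramp3. All 8 of them were found among 20022 rat genes and among 51912 rows of the mouse table. The rat samples were bulk tissue from a healing periodontal bone defect in the mandible of male specific pathogen-free Sprague-Dawley rats, wild type in genotype and young by the study's methods. In the sensory nerve+ groups the inferior alveolar nerve was left whole, with 3 rats at day 3, 4 at day 7 and 4 at day 14 after surgery. In the sensory nerve- groups a segment of that nerve was also removed, with 4 rats at each day, so the defect was shared by all 23 rats and the transection was not. The mouse samples were of RAW264.7, a wild-type macrophage-like cell line, given 100 ng/ml lipopolysaccharide (LPS, a bacterial cell wall component) for 6 h, either alone (LPS, n = 6) or with 10 nM CGRP (LPS+CGRP, n = 5). No unstimulated sample was among the 11.

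CGRP and adrenomedullin act through the same receptor protein, the calcitonin receptor-like receptor encoded by Calcrl, which reaches the cell surface only with a partner. With the partner encoded by Ramp1 it binds CGRP, and with those of Ramp2 or Ramp3 it binds adrenomedullin. The receptors couple to Gs and raise cyclic AMP. Sensory neurons make CGRP in cell bodies in the ganglion and carry it along the axon as peptide, so the transcripts of an innervated tissue are not a measure of the peptide delivered there. Calca gives calcitonin or alpha-CGRP by alternative splicing, which a count per gene cannot separate, and Calcb gives beta-CGRP. Adrenomedullin is made by endothelial and many other cells and is a known target of the hypoxia response, and Adm2 encodes the related peptide intermedin.

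Calca and Calcb are close paralogs, and their sequences are shown because they limit how the reads of these genes could be assigned. In the mouse annotation (GENCODE M21, GRCm38) the most alike stretches of 120 coding bases lie in Calca at chr7:114632481-114634468 on the minus strand and in Calcb at chr7:114720214-114722093 on the plus strand, each across the junction of exons 3 and 4 of 5. They are written 5′ to 3′ with the bases that differ in capitals.
Calca: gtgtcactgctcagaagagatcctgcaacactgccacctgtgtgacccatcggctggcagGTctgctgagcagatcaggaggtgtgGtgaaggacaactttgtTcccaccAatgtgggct
Calcb: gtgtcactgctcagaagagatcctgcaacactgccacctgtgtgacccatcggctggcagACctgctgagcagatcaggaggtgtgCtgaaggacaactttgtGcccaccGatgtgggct
The stretches were identical at 115 of 120 bases, with a longest identical run of 60 bases. The rat genes were counted on the mRatBN7.2 assembly, whose sequence was not used here.

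The rat libraries held 14854598 to 18742423 counts each, and the macrophage samples 55614185 to 71538840 reads. A floor of 3 counts was set for detection, which is 0.160 to 0.202 CPM (counts for each 1000000 counts of the library) in a rat and 0.0419 to 0.0539 CPM in a macrophage sample. CPM values below were scaled by TMM, a normalization that sets the bulk of genes equal between libraries. The rats differed strongly in tissue makeup. The haemoglobin gene Hba-a1 took up to 23.4% of a rat's counts, and the summed CPM of 8 skeletal muscle markers ran from 19.2 to 33789. In such bulk tissue, fewer cells of a type and less RNA per cell cannot be told apart. The sensory nerve- rats of day 7 came in a separate table, so that table cannot be told apart from the transection at day 7, nor from the day in comparisons of sensory nerve- rats of day 7 with another day, and it also enters the fits of all 23 rats. The labelled mixed tissue held markers of all 10 cell types looked for.

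Transcripts of the CGRP genes were at the edge of detection in the healing tissue. The deposited values are expected counts, in which reads that match several genes are shared out. Calca reached at most 7 counts in any rat and was over the floor in 6 of 23, and Calcb was over it in 8 of 23. In 7 of the 8 rats with a fraction in either gene, the fractions added up to a whole number within 0.01, so the paralogs were read together as a sum. The sum was over the floor in 11 of 23 rats and 0 in 5. The floors, and the counting intervals given below for ratios of reads, cover counting error only.

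At day 3 the summed Calca and Calcb counts were 0, 9 and 2 in the sensory nerve+ rats and 4.04, 6, 46 and 0 in the sensory nerve- rats. The highest value of all 23 rats, 46 counts or 2.15 CPM, was thus in replicate 3 of the transected group, in which Calcb gave 40.98 of the counts. The 12 sensory neuron markers summed to 41.2 CPM in that rat, within the range of 22.7 to 67.2 CPM in its group. Tac1 and Scn11a (neuropeptide precursor and sodium channel of nociceptors) were at 0 there. Both had a median of 0 CPM over the rats, and at most 0.438 and 0.192 CPM in any, so a 0 was usual for them. At day 7 the sums were 3, 8, 20 and 1 counts in sensory nerve+ and 1, 1, 8 and 2 counts in sensory nerve- rats, and the groups overlapped. At day 14 they were 14, 6, 4.99 and 7 counts in sensory nerve+ and 0, 0, 3 and 0 counts in sensory nerve- rats. Every sensory nerve+ rat of day 14 was thus over the floor and no sensory nerve- rat was, although in CPM the highest sensory nerve- rat (0.329 CPM) lay above the lowest sensory nerve+ rats (0.287 and 0.299 CPM).

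The mean sum at day 14 was 0.0821 CPM in sensory nerve- (n = 4) and 0.438 CPM in sensory nerve+ rats (n = 4), a difference of -0.356 CPM (exact permutation test, two-sided, p = 0.0857, adjusted p = 0.343 over 4 tests). At day 7 the means were 0.157 and 0.376 CPM (exact p = 0.229, adjusted p = 0.457), and at day 3 they were 0.667 and 0.178 CPM (exact p = 0.743, adjusted p = 0.953). Permuted within days over all 23 rats, the mean difference was -0.0285 CPM (exact p = 0.953, adjusted p = 0.953). None of the 4 tests passed, and the smallest p that a single day allowed was 0.0286. After adjustment over 4 tests, a difference at 1 day alone could therefore not pass, whatever its size. Day 14 reached that smallest p without replicate 3 of sensory nerve- day 14 (-0.438 CPM, exact permutation p = 0.0286, adjusted p = 0.114). The values at day 3 and over the days rested on the transected rat with 46 counts. Without it the difference was -0.00383 CPM at day 3 and -0.193 CPM over the days (exact permutation within days, p = 0.0535, adjusted p = 0.171), below 0 at every day. At these counts and group sizes the tests could not decide whether CGRP transcript differed between intact and transected tissue. Adm2, for intermedin, was lower still. At day 3 it gave 9, 5 and 1 counts in sensory nerve+ and 1, 1, 2 and 1 counts in sensory nerve- rats, and at day 7 it gave 0 counts in all 8 rats. At day 14 it gave 0, 2, 0 and 1 counts in sensory nerve+ rats and 0 in all 4 sensory nerve- rats. It was over the floor in 2 of 23 rats, both of them sensory nerve+ rats of day 3.

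Adm, for adrenomedullin, was the 1 ligand gene read in every rat, and it was highest at day 3. In sensory nerve+ rats it was at 70.3, 7.98 and 10.1 CPM at day 3, at 2.60, 3.55, 1.97 and 3.80 CPM at day 7, and at 2.35, 2.39, 7.58 and 4.41 CPM at day 14. All 3 rats of day 3 lay above all 8 later rats of that arm, where 25.9% of 14333 genes with a mean of 1 CPM or more stood apart between days 3 and 7 and 24.9% between days 3 and 14. In sensory nerve- rats it was at 7.23, 10.7, 5.18 and 46.5 CPM at day 3, at 3.14, 3.53, 4.20 and 8.15 CPM at day 7, and at 2.36, 5.18, 4.05 and 1.92 CPM at day 14. Here the groups overlapped, at day 7 through replicate 4 and at day 14 through replicate 2, which was level with the lowest rat of day 3.

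**Figure D1:**
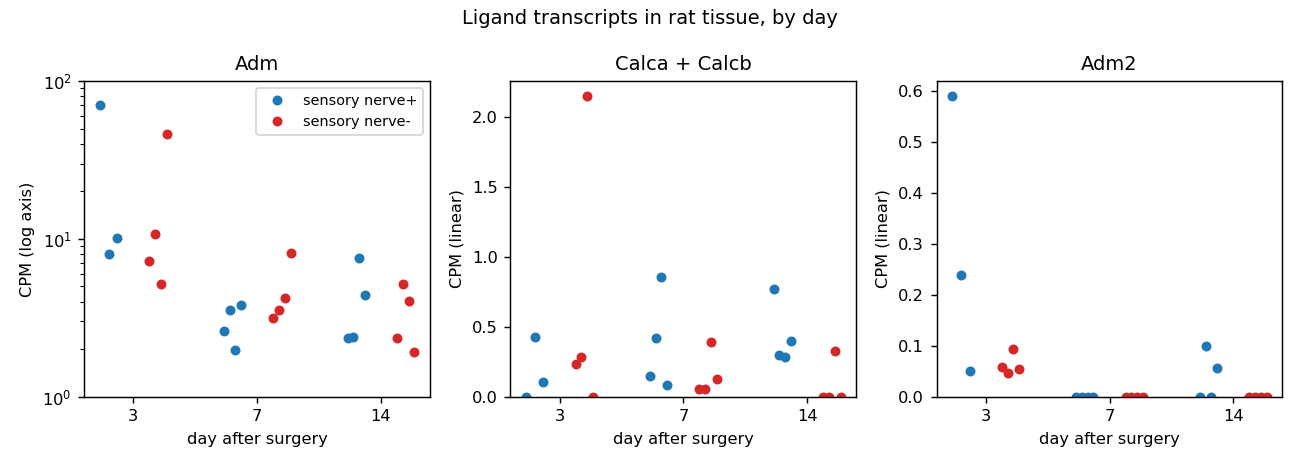
Ligand transcripts in rat tissue as TMM-scaled CPM against the day after surgery, 1 point per rat, blue for sensory nerve+ and red for sensory nerve-. Adm is on a log axis, and its 2 highest points, at 70.3 and 46.5 CPM, are both rats of day 3. The sum of Calca and Calcb and the level of Adm2 are on linear axes, and nearly all their points lie under 1 CPM.

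Within each arm the difference in Adm between days did not pass the test, with all rats kept and under the settings used for the main results. With edgeR's quasi-likelihood test, and p-values adjusted by Benjamini-Hochberg over all genes tested, the log2 fold change from day 3 to day 7 was -3.27 (SE 0.800, adjusted p = 0.0581) in sensory nerve+ and -1.87 (SE 0.725, adjusted p = 0.135) in sensory nerve- rats. To day 14 it was -2.77 (SE 0.853, adjusted p = 0.0908) and -2.38 (SE 0.747, adjusted p = 0.0519). The sizes leaned on the high rat of each arm. Without replicate 1 of sensory nerve+ day 3 the values of that arm were -1.60 and -1.10, and without replicate 4 of sensory nerve- day 3 those of the other arm were -0.69 and -1.22. The call was gained, in contrast, without replicate 2 of sensory nerve+ day 3 (-3.72 to day 7) and without replicate 3 of sensory nerve- day 3 (-2.69 to day 14). When both arms were fitted together, with day and transection as terms, Adm fell by 2.52 on the log2 scale from day 3 to day 7 (SE 0.530, adjusted p = 0.00133, edgeR) and by 2.56 from day 3 to day 14 (SE 0.528, adjusted p = 0.000744, edgeR). It kept its call without either high rat, with values between -2.78 and -1.84 to day 7 and between -2.79 and -1.80 to day 14 over every rat left out in turn. From day 7 to day 14 the joint value was -0.04 (SE 0.504).

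The hypoxia list, 13 genes that low oxygen is known to induce (Adm itself is not in it), moved in the same direction as Adm. Of the 12 tested, 7 fell and 0 rose from day 3 to day 7 in the joint fit, with a median log2 fold change of -0.82, and 9 fell and 0 rose from day 3 to day 14, with a median of -1.23. The medians over all genes were -0.01 and 0.02, and 29.8% and 41.1% of all genes were called. Pgk1 and Pdk1, a glycolytic enzyme and the kinase that holds back pyruvate dehydrogenase, fell by 1.47 and 1.18 on the log2 scale from day 3 to day 7 (adjusted p = 0.000144 and 0.000246, edgeR), while Kdm3a and Vegfa were at 0.14 and -0.04 from day 3 to day 14. The summed CPM of the list was highest in replicate 1 of sensory nerve+ day 3 (6071 CPM) and next in replicate 4 of sensory nerve- day 3 (3925 CPM), which are the rats with the highest Adm, and lay between 982 and 2573 CPM in the other 21. Its part in the level of Adm was not tested.

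Calcrl, the receptor subunit shared by both peptides, rose after day 3 in both arms. At day 3 it was at 25.3, 20.4 and 26.4 CPM in sensory nerve+ and at 29.8, 18.0, 24.9 and 21.7 CPM in sensory nerve- rats. At day 7 it was at 111, 71.3, 50.9 and 44.7 CPM in sensory nerve+ and at 103, 65.9, 70.4 and 54.0 CPM in sensory nerve- rats. No rat of day 7 was as low as any rat of day 3, in either arm, beside 25.9% (sensory nerve+) and 21.9% (sensory nerve-) of genes whose days 3 and 7 stood apart. At day 14 the level was 73.9, 22.6, 64.0 and 57.4 CPM in sensory nerve+ and 35.3, 38.6, 86.2 and 47.1 CPM in sensory nerve- rats, so replicate 2 of sensory nerve+ fell back among the rats of day 3 and the others stayed above them. In sensory nerve- rats 26.7% of genes stood apart between days 3 and 14.

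Calcrl rose by 1.58 on the log2 scale (SE 0.333, adjusted p = 0.038, edgeR) in sensory nerve+ and by 1.63 (SE 0.237, adjusted p = 0.014, edgeR) in sensory nerve- rats from day 3 to day 7, the latter with its day 7 rats from the separate table. It was the 1 member called of 5 tested in each arm, where 6.67% and 10.5% of all genes tested were called. From day 3 to day 14 it rose by 1.11 (SE 0.308, adjusted p = 0.0354, edgeR) in sensory nerve- rats, again the 1 member called of 5, beside 23.5% of all genes. In sensory nerve+ rats the value was 1.20 (SE 0.384, adjusted p = 0.0981, edgeR), with 0 of 5 members called beside 5.78% of all genes. From day 7 to day 14 Calcrl was at -0.33 (SE 0.405) and -0.49 (SE 0.321), and 0 of 5 members were called in either arm, where 0.0202% and 0.0138% of all genes were. The calls in a single arm were not kept with every rat left out in turn, although the fold change stayed above 0 in each of these fits. In sensory nerve+ rats at day 7 the call was lost without replicate 1, 2 or 3 of day 3 or replicate 1 or 2 of day 7, with values between 1.27 and 1.65, and also with library totals in place of TMM (1.67). In sensory nerve- rats at day 7 it was lost without replicate 1 of day 3 (1.74) or replicate 3 of day 7 (1.65), and at day 14 without any 1 of the 4 rats of day 3 or without replicate 4 of day 14, with values between 0.99 and 1.32, and also with library totals (0.59). In sensory nerve+ rats at day 14 it was gained without replicate 2 of that day (1.49, adjusted p = 0.00353, edgeR). The day 3 groups are shared by the comparisons with day 7 and day 14.

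The receptor partners did not pass the test between days in either arm alone. Ramp1, the CGRP-selecting partner, was at 4.27, 2.77 and 7.47 CPM in sensory nerve+ and at 2.68, 9.48, 4.38 and 5.01 CPM in sensory nerve- rats at day 3. At day 7 it was at 8.05, 7.30, 3.17 and 7.76 CPM and at 8.98, 6.74, 13.1 and 7.38 CPM in the same order of arms. At day 14 it was at 8.59, 16.0, 4.71 and 8.65 CPM and at 17.8, 7.32, 12.5 and 10.1 CPM. The days overlapped in each arm, most of all through the single low or high rats. Its log2 fold change from day 3 to day 14 was 1.00 (SE 0.499, adjusted p = 0.237, edgeR) in sensory nerve+ and 1.11 (SE 0.436, adjusted p = 0.098, edgeR) in sensory nerve- rats.

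Ramp2, the partner that makes the adrenomedullin receptor of endothelium, was at 15.6, 15.0 and 27.0 CPM in sensory nerve+ and at 20.0, 18.1, 20.5 and 18.6 CPM in sensory nerve- rats at day 3. At day 7 it was at 37.2, 26.9, 21.6 and 38.7 CPM and at 42.2, 30.6, 15.4 and 26.6 CPM, and at day 14 at 37.0, 8.77, 53.3 and 25.8 CPM and at 18.1, 27.6, 61.9 and 29.7 CPM. The values of day 14 overlapped those of day 3 in both arms. Ramp3, the partner of the other adrenomedullin receptor, was at 7.94, 7.36 and 14.9 CPM in sensory nerve+ and at 11.1, 18.9, 9.28 and 11.2 CPM in sensory nerve- rats at day 3. At day 7 it was at 5.74, 7.04, 5.99 and 16.7 CPM and at 3.20, 14.7, 7.82 and 22.1 CPM, and at day 14 at 16.5, 20.9, 16.0 and 15.8 CPM and at 15.4, 25.5, 16.1 and 26.7 CPM. In sensory nerve+ rats the 4 values of day 14 lay above all 3 of day 3, beside 24.9% of genes that stood apart there, and in sensory nerve- rats the days overlapped. From day 3 to day 14 its log2 value was 0.80 (SE 0.289, adjusted p = 0.126, edgeR) and 0.70 (SE 0.281, adjusted p = 0.107, edgeR), and that of Ramp2 was 0.72 (SE 0.563) and 0.80 (SE 0.344). Without replicate 2 of sensory nerve- day 3 both Ramp1 (1.53) and Ramp3 (0.95) were called in that arm.

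**Figure D2:**
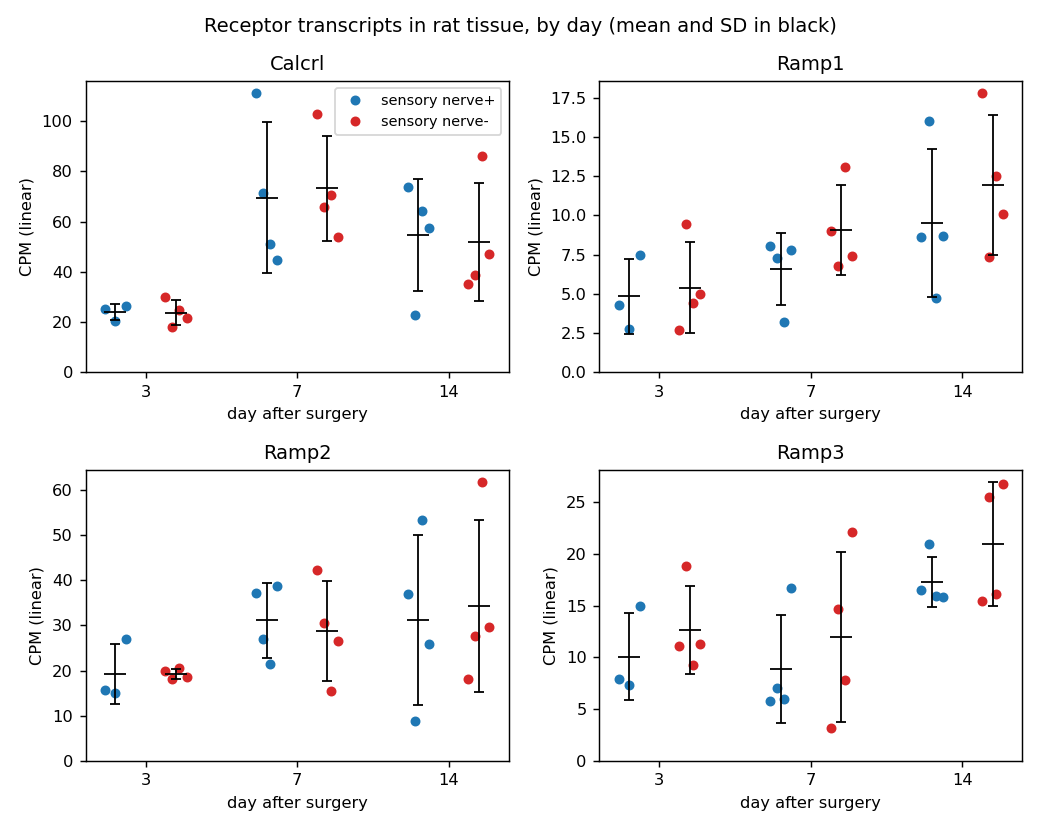
Receptor transcripts in rat tissue as TMM-scaled CPM on linear axes against the day after surgery, 1 point per rat, with the mean and SD of each group in black (n = 3 for sensory nerve+ day 3 and n = 4 otherwise). Calcrl stands apart between days 3 and 7 in both arms, whereas blue and red points overlap in every panel and on every day.

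In the joint fit of 23 rats, which was added after the single-arm results were seen, 2 of 6 members passed from day 3 to day 7 (Adm and Calcrl), beside 29.8% of all genes tested. From day 3 to day 14 there were 4 of 6, beside 41.1% of all genes, and from day 7 to day 14 there were 0 of 6, beside 14% of all genes. Calcrl rose by 1.59 on the log2 scale (SE 0.251, adjusted p = 0.000145, edgeR) to day 7 and by 1.17 (SE 0.248, adjusted p = 0.000957, edgeR) to day 14. To day 14 Ramp1 rose by 1.08 (SE 0.308, adjusted p = 0.00834, edgeR) and Ramp2 by 0.78 (SE 0.303, adjusted p = 0.0448, edgeR). Ramp3 was at 0.77 (SE 0.316, adjusted p = 0.0569, edgeR) to day 14, after -0.13 (SE 0.313, adjusted p = 0.796, edgeR) to day 7. So many genes moved after day 3 that these counts are not particular to the members. The call of Ramp2 was lost in 14 of the 23 fits that left out 1 rat, with values from 0.52 to 0.92, and both Ramp1 and Ramp2 lost theirs when libraries were scaled by their totals alone. Calcb was the sixth member tested, at -2.27 (SE 1.24) to day 7. The filter on low counts left out Calca and Adm2. Without that filter, Adm2 passed in the joint fit as well, lower both at day 7 (adjusted p = 0.00094, edgeR) and at day 14 (adjusted p = 0.00822, edgeR) than at day 3, on the few counts given above, and the call of Ramp2 to day 14 was lost (0.77, adjusted p = 0.0551, edgeR).

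None of the members was called for the transection, at any day or over all days. At day 3, 0 of 5 members and 0% of all genes were called, and the same held for 0 of 5 at day 7 (0%) and 0 of 5 at day 14 (0%). At an unadjusted p under 0.05, edgeR took 122, 215 and 1362 genes at the successive days. None of the 5 members tested was among them. Pooled over days, 0 of 6 members and 0% of all genes passed. Under the unadjusted threshold there were 811 genes, with none of the 6 members among them. Without the filter on low counts 0 members were called either. On their few counts, edgeR then put Adm2 at -1.97 pooled (unadjusted p = 0.00728, adjusted p = 0.835) and -2.07 at day 3 (unadjusted p = 0.0413). It put Calca at -2.59 at day 14 (unadjusted p = 0.0437, adjusted p = 0.573), and Calcb at 2.28 at day 3 (unadjusted p = 0.231). The interaction of transection and day gave 0 of 6 and 0%, and Calcb alone of the members was among the 475 genes under the unadjusted threshold (adjusted p = 0.998, edgeR). With DESeq2 as the tool the counts over all genes were 0, 1 and 95 at the successive days, 1 pooled over days and 0 for the interaction, again with 0 members.

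The intervals show how large a difference the pooled fit leaves room for. For Calcrl, sensory nerve- over sensory nerve+ was at a log2 fold change of -0.004 (SE 0.196), with a 95% interval from -0.41 to 0.40. Ramp2 was at 0.01 (SE 0.242), with an interval from -0.49 to 0.51. Ramp1 and Ramp3 were at 0.33 (SE 0.245) and 0.35 (SE 0.254), with intervals from -0.18 to 0.84 and from -0.18 to 0.87. The value of Adm was -0.11 (SE 0.418, interval from -0.98 to 0.76), and that of Calcb -0.88 (SE 1.05, interval from -3.06 to 1.30). Ramp1 and Ramp3 were above 0 at each day, at 0.16, 0.47 and 0.33 for Ramp1 and at 0.31, 0.42 and 0.27 for Ramp3 at days 3, 7 and 14, each with an interval that included 0, and with library totals alone both turned below 0 at day 14.

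**Figure D3:**
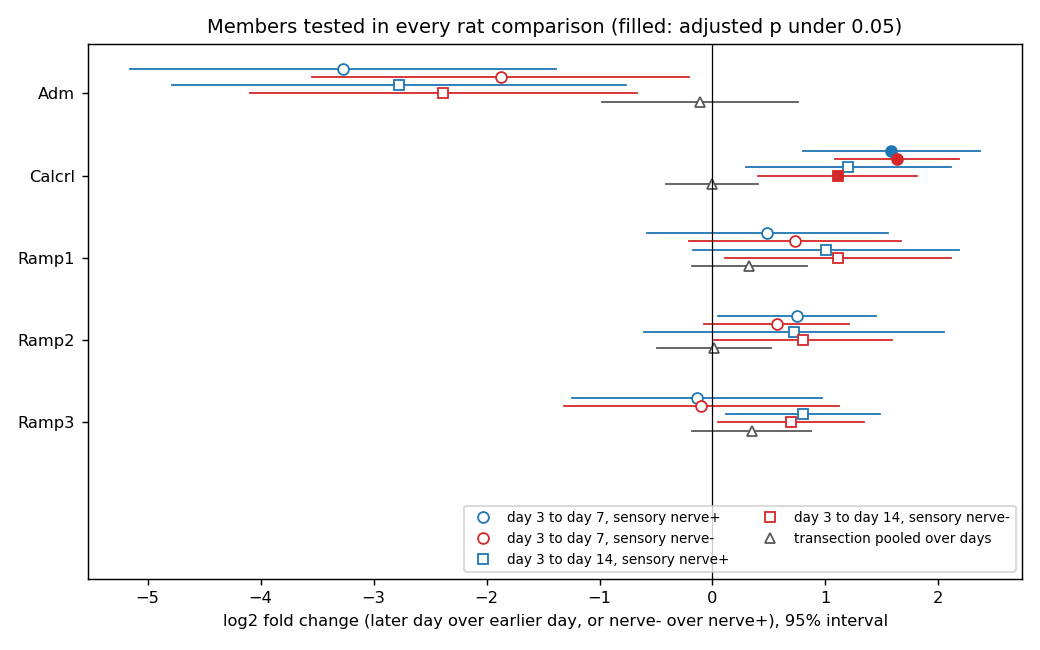
Log2 fold changes (points) with 95% intervals (lines) of the 5 members tested in every rat comparison, for day 3 to day 7 (circles), day 3 to day 14 (squares) and sensory nerve- over sensory nerve+ pooled over days (grey triangles). Filled symbols passed an adjusted p of 0.05 in edgeR, which only Calcrl did, and all triangles lie between -0.11 and 0.35.

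Markers of endothelium, where Calcrl and Ramp2 are known to be expressed, were read in the same rats. The summed CPM of 9 blood endothelium markers (among them Pecam1 and Cdh5, adhesion proteins of endothelial junctions) was 466 to 714 in sensory nerve+ and 394 to 642 in sensory nerve- rats at day 3, and 716 to 1050 and 579 to 1492 at day 7. In the joint fit 3 of the 9 rose and 0 fell from day 3 to day 7, with a median log2 fold change of 0.70, and 5 rose and 0 fell from day 3 to day 14, with a median of 1.00, beside 29.8% and 41.1% of all genes called. Replicate 2 of sensory nerve+ day 14, with the lowest Ramp2 of all rats (8.77 CPM) and a low Calcrl, had a sum of 397 CPM, whereas replicate 3 of sensory nerve- day 14, with the highest Ramp2 (61.9 CPM), had the highest sum, 2034 CPM. Ramp2 as a percentage of this sum stayed between 2.21 and 4.58 over all 23 rats, with group medians from 2.81 to 3.54. Calcrl as a percentage of the sum had a median of 4.38 and 4.22 at day 3, 8.24 and 6.98 at day 7, and 6.17 and 4.61 at day 14, in sensory nerve+ and sensory nerve- rats. At day 7 every sensory nerve- rat (6.51 or more) was above every sensory nerve- rat of day 3 (4.67 or less) on this scale too, while in sensory nerve+ rats the lowest of day 7 (4.92) was under the highest of day 3 (5.38). Ramp1 as a percentage of the sum spread from 0.322 to 4.03 and Ramp3 from 0.215 to 5.27. The part of endothelial content in the receptor levels was not tested.

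**Figure D4:**
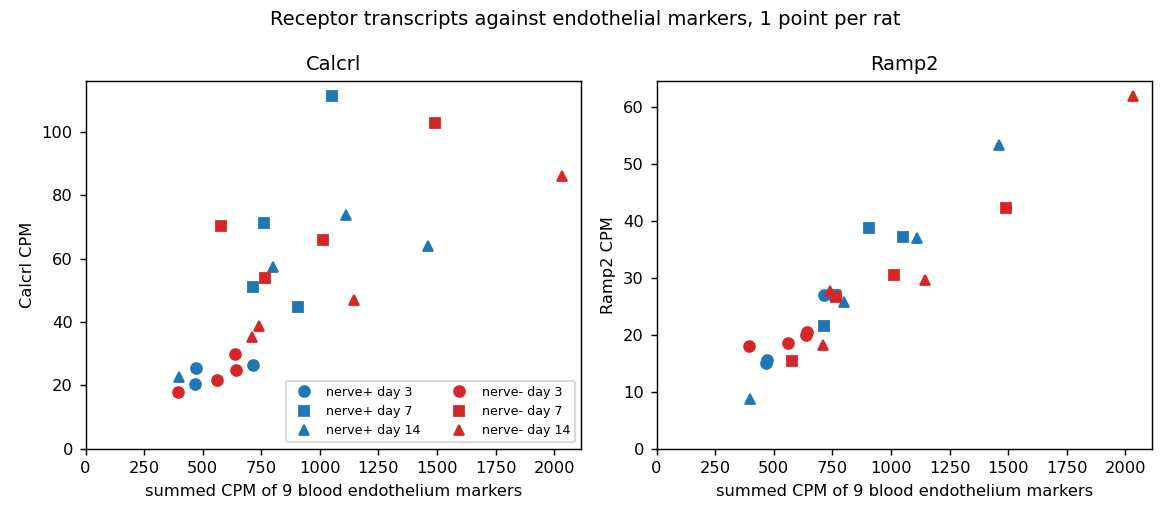
Calcrl (left) and Ramp2 (right) in CPM against the summed CPM of 9 blood endothelium markers, 1 point per rat on linear axes, with colour for the arm and symbol for the day. Ramp2 stays between 2.21% and 4.58% of the sum in all rats. Calcrl as a percentage of the sum is higher in every square of day 7 than in every circle of day 3 for sensory nerve- rats, while the sensory nerve+ rats overlap.

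The genes whose pattern over the 23 rats was most like that of each member were read from the root mean square difference of log2 values, each gene centred on its own mean, among 14332 genes with a mean of 1 CPM or more. For Calcrl they were Tspan12 and Tspan9, tetraspanin membrane proteins, at 0.338 and 0.361, where the median gene was at 0.895. For Ramp2 they were Slc9a3r2 and Sema3f at 0.248 and 0.249, against a median of 0.768, the closest matches of any member. For Adm they were Angptl4, a secreted inhibitor of lipoprotein lipase, at 0.564, and LOC120103612 at 0.579, against 1.28. Ramp1 and Ramp3 had less close matches for their size, Rubcnl and Gramd4 at 0.406 and 0.408 against 0.817, and Olr546 and Jade2 at 0.459 and 0.464 against 0.853. The rats share day and tissue makeup, so these likenesses describe this set of rats only.

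The rest of the pathway was read from lists that were chosen for their known roles, with earlier results of these data known. Of 12 cyclic AMP feedback and immediate target genes, all tested, 4 rose and 0 fell from day 3 to day 7 in the joint fit (median log2 fold change 0.35), and 7 rose and 0 fell from day 3 to day 14 (median 0.94). Of all genes, 29.8% and 41.1% were called in these fits. Nr4a1, an immediate-early nuclear receptor, rose by 2.21 (SE 0.248, adjusted p = 2.6e-06, edgeR), Dusp1, a MAP kinase phosphatase, by 2.12 (SE 0.352, adjusted p = 0.000102) and the kinase gene Sik1 by 1.24 (SE 0.225, adjusted p = 0.000235) to day 14. In sensory nerve+ rats 0 and 3 of the 12 passed to day 7 and day 14, and in sensory nerve- rats 3 and 6, all higher, where 6.67% and 5.78%, and 10.5% and 23.5%, of all genes were called. Many other signals are known to induce these genes. For the transection 0 of the 12 passed at any day, with Nr4a1 at -0.70 (SE 0.311, adjusted p = 0.519, edgeR) at day 14.

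Genes of Gs, adenylyl cyclase and protein kinase A moved both ways in the joint fit. Of 18 tested, 4 rose and 2 fell to day 7 (median -0.13) and 2 rose and 2 fell to day 14 (median 0.10). In the joint fit, from which the counts of the next lists also come, 29.8% of all genes were called to day 7 and 41.1% to day 14. Prkar2a, a regulatory subunit of protein kinase A, fell by 0.93 (SE 0.138, adjusted p = 3.68e-05, edgeR) and Atf1, a factor of the CREB family, by 0.31 (SE 0.0783, adjusted p = 0.00396) to day 14, and Adcy4, an adenylyl cyclase, rose by 0.65 (SE 0.236, adjusted p = 0.0328). Of 6 kinases and arrestins that desensitize receptors, 0 passed to day 7 and 1 rose to day 14, Grk6, by 0.58 (SE 0.204, adjusted p = 0.0265, edgeR). Of 6 peptide processing enzymes 1 fell to day 14, Furin, by 0.44 (SE 0.145, adjusted p = 0.019, edgeR), and of 6 genes of related receptors and peptide clearance 1 fell, the peptidase gene Ide, by 0.65 (SE 0.138, adjusted p = 0.001, edgeR). Under transection 0 genes of these lists passed at any day, beside 0% of all genes.

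In the macrophages the question was what CGRP does to LPS-stimulated cells, and the members were read first as the machinery to receive it. Calcrl was abundant. It was at 355, 358, 355, 336, 356 and 366 CPM in the LPS samples and at 358, 361, 344, 350 and 362 CPM in the LPS+CGRP samples, and the groups overlapped throughout. Per kilobase of exon it stood at 72.6 CPM, rank 737 of 20139 genes over the floor.

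The partners of the receptor were nearly without reads. Ramp1 had 0 reads in all 22 runs of the 11 samples, of 696269171 reads in all, which allows a level of up to 0.00431 CPM over the whole set. Ramp3 had 1 read, in LPS replicate 2. Ramp2 had 84 reads, between 2 and 13 per sample, and 33.4% of its annotated exon bases are shared with the neighbour Vps25 on the same strand. Per kilobase of exon, Calcrl was 51018-fold higher than Ramp1 when Ramp1 was set at the 3-count floor over all samples. The lower limit of the counting interval of that ratio was 41490.5. Against Ramp2 the ratio was 1990, with a counting interval from 1608 to 2495, and against Ramp3, with its 1 read, it was 69892, with a counting interval from 12544 to 2760590. All 9 housekeeping genes looked at were read in every run, the lowest of them Tbp with 744 to 1081 reads per run. In the mouse annotation Ramp1 lies at chr1:91179822-91225196 on the plus strand, with 3022 exon bases and 0 of them shared with another gene.

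The ligand genes had few reads or 0 in these cells. Calca and Adm2 had 0 reads in all 22 runs, and Calcb had 7 reads in all, with at most 2 in a run. Adm was read in every sample, at 0.324, 0.580, 0.480, 0.519, 0.367 and 0.643 CPM with LPS and at 0.605, 0.273, 0.681, 0.559 and 0.368 CPM with LPS+CGRP, and the groups overlapped. The receptor for calcitonin (Calcr) and amylin itself (Iapp) also had 0 reads, and Ackr3, a scavenging receptor for adrenomedullin, had 3, whereas Crcp, which encodes a protein that helps CGRP receptors couple, had 28574.

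**Figure D5:**
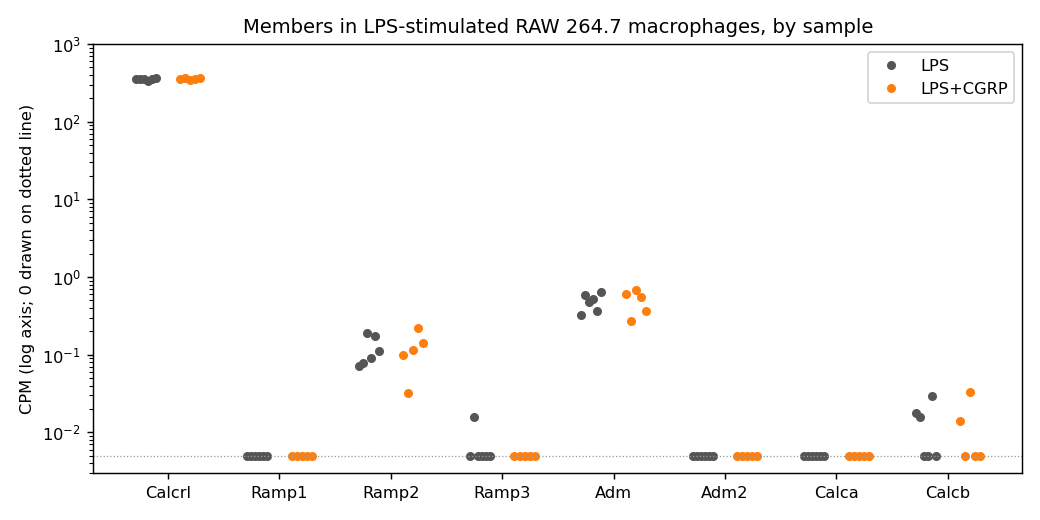
The 8 members in LPS-stimulated RAW264.7 samples as TMM-scaled CPM on a log axis, 1 point per sample, grey for LPS (n = 6) and orange for LPS+CGRP (n = 5), with samples at 0 drawn on the dotted line. Calcrl lies between 336 and 366 CPM, Ramp1, Adm2 and Calca lie at 0 in every sample, and grey and orange points overlap for each member.

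Neither of the members that could be tested passed the test with CGRP. For Calcrl the log2 fold change of LPS+CGRP over LPS was 0.002 (SE 0.0191, 95% interval from -0.04 to 0.04, adjusted p = 0.988, limma on log2 of CPM plus 0.5), and for Adm it was 0.01 (SE 0.112, interval from -0.23 to 0.24, adjusted p = 0.989, limma). Thus 0 of 2 members were called, beside 0.0222% of all genes tested, which is 3 of 13492. The labels do not say whether the samples were separate cultures, so these p-values measure only the spread between the samples. Of the 10 cyclic AMP feedback and immediate target genes that could be tested, 0 were called, with a median of -0.02, and the smallest p was that of Dusp1 at -0.06 (SE 0.0212, adjusted p = 0.383, limma). In the other pathway lists 0 genes were called too, with Arrb1, for an arrestin, at 0.08 (SE 0.0235, adjusted p = 0.322, limma) as the smallest p of all of them. Over all genes, 1357 of 13492 had an unadjusted p under 0.05. On the recovered whole reads edgeR called 0 of 13525 genes and DESeq2 73, with 0 members by either.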

How the data were processed

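Rat tissue (23 rats, 6 groups) and RAW264.7 samples (11 samples, 2 runs each) were grouped by their labels. For rats the authors aligned reads to mRatBN7.2 with HISAT and Bowtie2 and deposited an expected count per gene, which was rounded here. For macrophages they aligned to mm10 with STAR after cutadapt and the deposited signal of each run is its counts times 1 factor. Whole reads came out of 100% of the signal values, within 0.01, and the runs of a sample were summed. All rat fits used edgeR 4.0.16 (TMM, filterByExpr, quasi-likelihood), each on its own groups, and the macrophage signal was tested with limma 3.58.1 on log2 of TMM-scaled CPM plus 0.5. Adjusted p under 0.05 was a call, and SEs of edgeR were derived from its F statistic. Exact permutation tests used the sum of Calca and Calcb. The fits were tested on simulated data. R 4.3.3, DESeq2 1.42.0 (an alternative), Python 3.11.15, numpy 2.4.6, pandas 2.3.3, scipy 1.17.1 and matplotlib 3.10.9 were used.

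The members and lists were chosen with earlier results of these data known. Named were all 8 members, from each pathway list up to 3 called genes by smallest p or else the 1 with the smallest p, up to 2 genes of a marker list, and the 2 genes most like each member with a mean of at least 1 CPM. Kdm3a, Vegfa, Tac1 and Scn11a were named after their values were seen. Same-numbered rats were not treated as pairs, because in none of the comparisons were all correlations of their deviations over 0.1. The mean of these correlations ran from -0.124 to 0.147 over the rat comparisons, which does not exclude pairing. Coordinates are of GRCm38, which mm10 shares.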

Additional observations from a re-analysis of the deposited data

Results flagged for a closer look

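Of 46 sets of member values with 4 to 6 samples that were not all equal, 9 held a sample far from the others. In 4 of these the values were at or near the floor and every other sample of the group was at 0, so that any value above 0 stands apart and the rate of about 1 in 20 that chance gives does not apply. They were Calca at 0.110 CPM in sensory nerve- day 14 replicate 3, Calcb at 0.219 CPM in the same rat, Calcb at 0.0489 CPM in sensory nerve- day 7 replicate 3 and, in the macrophages, Ramp3 at 0.0157 CPM in LPS replicate 2, which is its 1 read. Calcb was at 1.91 CPM in sensory nerve- day 3 replicate 3, where the other rats reached at most 0.238 CPM. Adm was at 46.5 CPM in sensory nerve- day 3 replicate 4, against 5.18 to 10.7 CPM. Ramp1 was at 3.17 CPM in sensory nerve+ day 7 replicate 3, below the other 3 rats at 7.30 to 8.05 CPM. Ramp3 stood high in sensory nerve+ day 7 replicate 4, at 16.7 CPM against 5.74 to 7.04 CPM, and in sensory nerve+ day 14 replicate 2, at 20.9 CPM against 15.8 to 16.5 CPM. The causes were not tested.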

How the results depend on the processing

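Of the members' values under alternatives planned for the report, with all samples kept, 340 kept their direction and their side of the threshold, 14 changed sign, 12 gained a call and 5 lost theirs. For the alternatives added later the numbers were 112, 2, 5 and 4. The changes of sign were of uncalled values. With library totals in place of TMM, the transection gave 0.045 for Ramp2 and 0.028 for Calcrl at day 3 and -0.24, -0.14 and -0.41 for Ramp1, Ramp3 and Ramp2 at day 14, and -0.18 for Ramp2 over all days. From day 7 to day 14, Ramp2 was then at -0.0027 in sensory nerve+, -0.28 in sensory nerve- and -0.14 in the joint fit, and Ramp1 at -0.080 in sensory nerve-. In 1 fit of all 23 rats Ramp2 was at 0.0036 for the transection at day 3. From run 1 alone, Adm was at -0.052 with CGRP.

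The number of members called also moved. In sensory nerve+ from day 3 to day 7 it was 1, but 2 with a stricter filter on low counts or in 1 fit of all rats, and in sensory nerve- it was 1, but 2 with DESeq2. From day 3 to day 14 it was 0 in sensory nerve+, but 1 with DESeq2 and 2 in 1 fit of all rats, and 1 in sensory nerve-, but 4 with DESeq2 and 2 in 1 fit of all rats. In the joint fit it was 0 from day 7 to day 14, but 1 (Ramp3) with DESeq2 or RLE size factors, and 4 from day 3 to day 14, but 2 with library totals, 3 with the replicate block (without Ramp2) and 5 with DESeq2 or RLE size factors (with Ramp3). From day 3 to day 7 it was 2 there, but 3 with no filter on low counts (with Adm2). With library totals, 1 member was still called in sensory nerve+ to day 7 and 1 in sensory nerve- from day 3 to day 14. Calcrl lost its call in both, so the member called there was not Calcrl.

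The rats were not treated as paired by replicate number, and the replicate block is given as an alternative only. With the block, 0 members were called from day 3 to day 7 in either arm and 0 from day 3 to day 14 in sensory nerve-, and 1 from day 7 to day 14 in the joint fit. It turned the sign of Ramp2 at day 3 under transection (0.061) and from day 7 to day 14 in sensory nerve+ (-0.21), of Calcrl in the pooled transection (0.026) and of Adm from day 7 to day 14 in the joint fit (0.073). It ended the call of Calcrl in every single-arm comparison that had 1, and over all genes the number called from day 3 to day 7 and to day 14 was 122 and 0 in sensory nerve+, against 1002 and 871, and 2 and 2350 in sensory nerve-, against 1524 and 3396.

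Leaving out 1 rat, the members called from day 3 to day 7 ranged from 0 to 1 in each arm. From day 3 to day 14 they ranged from 0 to 1 in sensory nerve+ and from 0 to 2 in sensory nerve-, and from day 7 to day 14 in the joint fit from 0 to 1. Signs changed for uncalled values, whose ranges under transection at day 3 were -1.92 to 0.92 (Adm), -0.27 to 0.60 (Ramp1), -0.14 to 0.31 (Ramp2) and -0.15 to 0.062 (Calcrl). At day 7 they were -0.059 to 0.94 (Ramp3), -0.37 to 0.075 (Ramp2) and -0.14 to 0.39 (Calcrl), and at day 14 -0.59 to 0.15 (Adm), -0.35 to 0.53 (Ramp2) and -0.47 to 0.11 (Calcrl). Pooled over days they were -0.38 to 0.38 (Adm), -0.15 to 0.12 (Ramp2) and -0.13 to 0.091 (Calcrl). Ramp3 from day 3 to day 7 ranged from -0.62 to 0.26 in sensory nerve+, -0.56 to 0.22 in sensory nerve- and -0.36 to 0.022 jointly. From day 7 to day 14 Ramp2 ranged from -0.36 to 0.34, -0.18 to 0.52 and -0.086 to 0.29 in that order, and Adm jointly from -0.25 to 0.22. The transection difference of Calca plus Calcb ranged from -0.00383 to 0.711 CPM at day 3, -0.316 to -0.0588 CPM at day 7, -0.438 to -0.247 CPM at day 14 and -0.193 to 0.0456 CPM over the days. With CGRP, Adm ranged from -0.057 to 0.095 and Calcrl from -0.013 to 0.014.

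Over all genes, DESeq2 called 2808, 3217, 3375 and 4852 from day 3 to day 7 and to day 14 in the arms in turn, and 325 and 1991 from day 7 to day 14 where edgeR called 3 and 2. With CGRP the counts ran from 0 to 73, against 3. The causes of these shifts were not tested. Calca, Calcb and Adm2 in rats, and Ramp1, Ramp2 and Ramp3 in macrophages, had few counts or 0, which limits tests of their differences. With no filter, Ramp2 was at 0.01 with CGRP on the whole reads (95% interval from -0.78 to 0.80, edgeR).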
